A study of Mus musculus with 6 samples.

Results

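The genes described here are 6 adrenergic receptor genes, Adra1a, Adra1b, Adra2a, Adra2b, Adrb1 and Adrb3, and the 2 genes of the monoamine oxidases, Maoa and Maob. They were taken by symbol from the gene count table, 8 of its 32212 rows, on the ground that loss of chromogranin A is held to raise circulating catecholamines. Liver RNA came from 3 WT mice and from 3 CgA-KO mice, which lack chromogranin A (CgA, the prohormone encoded by Chga). All 6 were males on the C57BL/6 background, 2 yr old and kept on normal chow, so sex, age, strain and diet were shared by the genotypes, and each library was made from poly(A)-selected RNA of whole liver. Circulating catecholamines of these mice are not given in the sources used here. From norepinephrine content of heart and kidney, the authors inferred reduced spillover at 2 yr in CgA-KO mice, close to that of young WT mice.

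Epinephrine and norepinephrine act on liver through receptors that couple to different G proteins. Alpha-1 receptors couple to Gq and raise cytosolic calcium, alpha-2 receptors couple to Gi and restrain adenylyl cyclase, and beta receptors couple to Gs and raise cAMP. The calcium and cAMP arms converge on phosphorylase kinase, which activates glycogen phosphorylase so that glycogen is broken down to glucose. Monoamine oxidases A and B sit on the outer mitochondrial membrane and deaminate catecholamines to aldehydes, which other enzymes then oxidise or reduce.

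Total counts per library ranged from 10558616 in WT replicate 1 to 31087453 in WT replicate 2. Chga had 0 counts in each of the 6 libraries, WT included, so it could not check the genotype labels. A count of 0 allows up to 3 counts, or between 0.0951 and 0.269 CPM (counts per 1000000 after TMM scaling), for counting error only. Of the 8 genes, 7 passed the filter on low counts and were tested. Adra2a was near zero, which here means fewer than 10 counts in each library. Of the 7, edgeR's quasi-likelihood test called 2 at an adjusted p-value under 0.05, Adrb1 higher and Adra1b lower in CgA-KO livers, while the same rule called 12.4% of all 13867 genes tested, 8.6% as higher and 3.84% as lower. In 4 of the 7 genes the genotypes did not overlap, against 33.6% of all genes tested. Both counts are of 7 genes, and nothing about the group as a whole is read from them.

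The sequence upstream of the start sites of these 2 called genes is shown because they moved in opposite directions. Each line gives the 250 bases before a RefSeq start on GRCm38.p6, read 5′ to 3′ on the gene's strand. RefSeq lists 1 start for Adrb1, whose window chr19:56721867-56722116 (plus strand) lies upstream of the annotated gene, and 2 starts for Adra1b, one window at chr11:43901238-43901487 (minus strand) outside the annotated gene and one at chr11:43836490-43836739 (minus strand) within its span. Capitals mark TGACG (the core of the cAMP response element), GGGCGG (the GC box) and CCAAT on either strand.
Adrb1: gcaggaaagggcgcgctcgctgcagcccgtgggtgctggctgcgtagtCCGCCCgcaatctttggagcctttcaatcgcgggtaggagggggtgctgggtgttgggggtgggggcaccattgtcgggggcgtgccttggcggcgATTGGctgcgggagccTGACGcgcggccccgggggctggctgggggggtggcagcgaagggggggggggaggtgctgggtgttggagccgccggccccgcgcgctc
Adra1b, start outside: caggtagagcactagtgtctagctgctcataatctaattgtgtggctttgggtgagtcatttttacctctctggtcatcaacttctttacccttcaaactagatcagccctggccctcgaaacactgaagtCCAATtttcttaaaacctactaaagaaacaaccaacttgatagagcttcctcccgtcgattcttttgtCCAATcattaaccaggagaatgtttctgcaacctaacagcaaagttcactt
Adra1b, start within: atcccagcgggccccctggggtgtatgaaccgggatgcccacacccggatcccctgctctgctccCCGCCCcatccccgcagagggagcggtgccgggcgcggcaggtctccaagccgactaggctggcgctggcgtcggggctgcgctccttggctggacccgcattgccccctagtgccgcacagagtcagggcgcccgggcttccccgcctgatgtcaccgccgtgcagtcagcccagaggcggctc

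The Adrb1 window was 74% G and C and held 1 TGACG, 90 bases before the start, 1 GGGCGG and 1 CCAAT. The outer Adra1b window was 41.6% G and C and held 2 CCAAT and no TGACG or GGGCGG. The inner one was 72.8% G and C and held 1 GGGCGG and none of the others. Over all 32851 windows of this length in the table, 17.8% held TGACG, 32.7% GGGCGG and 33.8% CCAAT, and the median G and C content was 52.4%. Both strands were searched. The full palindrome TGACGTCA, which contains TGACG and which 1.55% of windows held, and TATAAA, which 12.4% held, were in none of the 3 windows. Among the other genes with a window, Maoa and Adra2a each held 1 TGACG and Adra2b held 0. These matches describe the letters of the windows only.

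Alpha-1 receptors. Adra1b encodes the alpha-1B receptor, an alpha-1 subtype long known from rodent hepatocytes, and spans 43774606 to 43901210 on chromosome 11 (GRCm38, as for all positions here). It stood at 85.5, 43.2 and 77.6 CPM in WT replicates 1, 2 and 3. In the CgA-KO replicates, in the same order, it stood at 29.6, 25.6 and 26.1 CPM. All CgA-KO livers lay below all WT livers, and the CgA-KO livers lay close together while WT replicate 2 was well under the other WT livers. Group means were 68.8 ± 22.5 and 27.1 ± 2.19 CPM (SD, n = 3), and Adra1b fell by 1.34 on the log2 scale in CgA-KO (standard error 0.258, edgeR adjusted p = 0.0141). In RNA of whole liver, fewer cells of a type and less RNA per cell cannot be told apart. The levels rested on 955 to 1833 counts in WT and 582 to 807 in CgA-KO libraries. An exact two-sided permutation test of log2 CPM gave 0.1, the lowest value open to groups of 3.

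The direction of the Adra1b difference was the same in every fit, but the call depended on single libraries. The edgeR adjusted p was 0.0648 when WT replicate 3 was left out, and 0.0518 and 0.0624 for CgA-KO replicates 1 and 2. Without WT replicate 2 it was 0.00777, with a log2 fold change of -1.59.

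Adra1a encodes the alpha-1A receptor and lies on chromosome 14 from 66635251 to 66771168. Its levels were 8.06, 7.78 and 9.40 CPM in WT against 4.31, 4.18 and 6.18 CPM in CgA-KO replicates 1 to 3. No CgA-KO liver reached the lowest WT liver. The log2 fold change was -0.78 (standard error 0.252), and edgeR did not call it (adjusted p = 0.0754). DESeq2 did, at -0.80 on the log2 scale and an adjusted p of 0.0435, under a rule that called 17.2% of all genes with an adjusted p. Over all alternatives the adjusted p ran from 0.0435 to 0.282. The 2 alpha-1 genes thus had the same direction, and per kilobase of exon Adra1b exceeded Adra1a between 14.3 and 27.4 times in WT and between 10.9 and 17.7 times in CgA-KO libraries, ranges that overlap.

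**Figure D1:**
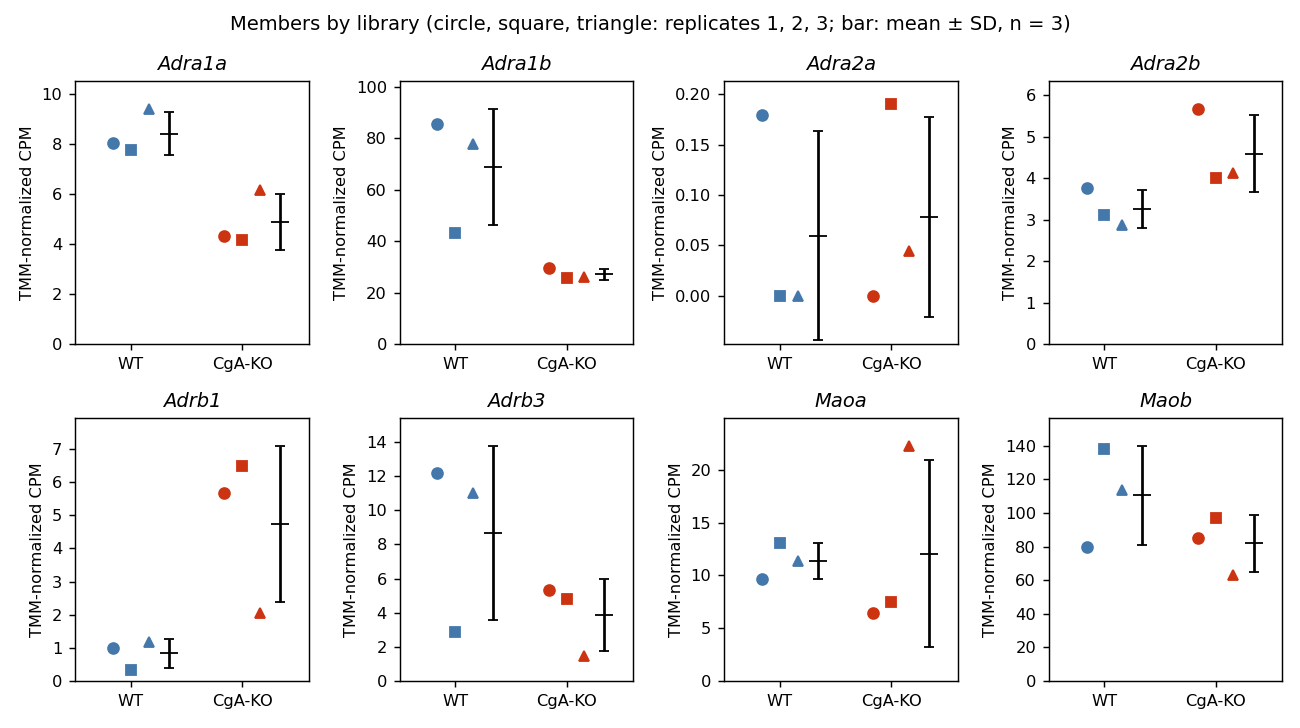
Level of each of the 8 genes in TMM-normalized CPM on linear axes, 1 panel a gene, for WT (blue) and CgA-KO (red) livers. Points are single libraries and the bars the mean ± SD of 3. Adra1b and Adra1a lie lower and Adrb1 and Adra2b higher in every CgA-KO liver, while Adra2a stays under 0.2 CPM and Maoa is high in CgA-KO replicate 3 alone.

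Alpha-2 receptors. Adra2b, which encodes the alpha-2B receptor, lies on chromosome 2 from 127363208 to 127367221. It was at 3.76, 3.10 and 2.88 CPM in WT against 5.66, 3.99 and 4.12 CPM in CgA-KO livers. The groups did not overlap, but the gap between WT replicate 1 and CgA-KO replicate 2 was small. CgA-KO exceeded WT by 0.50 on the log2 scale (standard error 0.289) and was not called (edgeR adjusted p = 0.284). It rested on 42 to 126 counts per library. Adra2a, the alpha-2A receptor gene on chromosome 19 from 54044151 to 54048982, had 2, 0 and 0 counts in WT and 0, 6 and 1 in CgA-KO replicates 1, 2 and 3. These counts were too few to measure a genotype difference, and no fold change is given.

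Beta receptors. Adrb1 encodes the beta-1 receptor, best known from the heart, and lies on chromosome 19 from 56722199 to 56733113. It had 11, 8 and 28 counts in WT replicates 1, 2 and 3, against 122, 205 and 46 in CgA-KO replicates 1, 2 and 3. As levels these were 0.985, 0.340 and 1.19 CPM in WT against 5.66, 6.50 and 2.06 CPM in CgA-KO livers. Every CgA-KO liver was above every WT liver, and CgA-KO replicate 3 was the nearest to WT. Group means were 0.837 ± 0.442 and 4.74 ± 2.36 CPM, and Adrb1 rose by 2.52 ± 0.580 (standard error) on the log2 scale, which is 5.72-fold (edgeR adjusted p = 0.0251). The exact two-sided permutation test again gave 0.1.

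The Adrb1 log2 fold change stayed between 2.11 and 2.93 whichever library was left out. The call did not stay. The edgeR adjusted p was 0.0669 and 0.0706 when WT replicate 2 or 3 was left out, and 0.0823 and 0.0862 for CgA-KO replicates 1 and 2. Over all alternatives the adjusted p ran from 0.000393, with DESeq2, to 0.0862, and a filter of at least 10 counts in every library removed the gene.

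Adrb3 encodes the beta-3 receptor, which is best known from adipocytes, where it drives lipolysis, and lies on chromosome 8 from 27225776 to 27250616. It stood at 12.2, 2.85 and 11.0 CPM in WT against 5.34, 4.79 and 1.48 CPM in CgA-KO replicates 1 to 3. WT replicate 2 lay among the CgA-KO livers, so the genotypes overlapped. The log2 fold change was -1.15 (standard error 0.589, edgeR adjusted p = 0.233), and over all alternatives the adjusted p ran from 0.109 to 0.504. An exact two-sided permutation test gave 0.3. Of 8 adipocyte markers 2 were tested. The adipocyte-defining Adipoq and Lep had at most 1 and 0 counts in any library, and Plin1 at most 7. Retn had at most 3 counts, Ucp1 at most 4 and Adrb3 itself 33 to 261. Cfd, on the same list and not tested, had 19, 10 and 11 counts in WT against 3, 8 and 3 in CgA-KO livers. Cidea, a lipid droplet protein gene on the same list, had 86, 70 and 59 counts in WT against 6, 8 and 23 in CgA-KO livers and was called lower by edgeR (log2 fold change -3.06, adjusted p = 0.0218). Fabp4, a fatty acid binding protein gene, had 130 to 410 counts and was not called by edgeR (log2 fold change 0.28, adjusted p = 0.735). These markers were named after their values were seen, and their part in the Adrb3 level was not tested. On the opposite strand the exons of Adrb3 overlap Gm45470, which had at most 6 counts. Whether the counting used strand is not given in the sources used here.

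**Figure D2:**
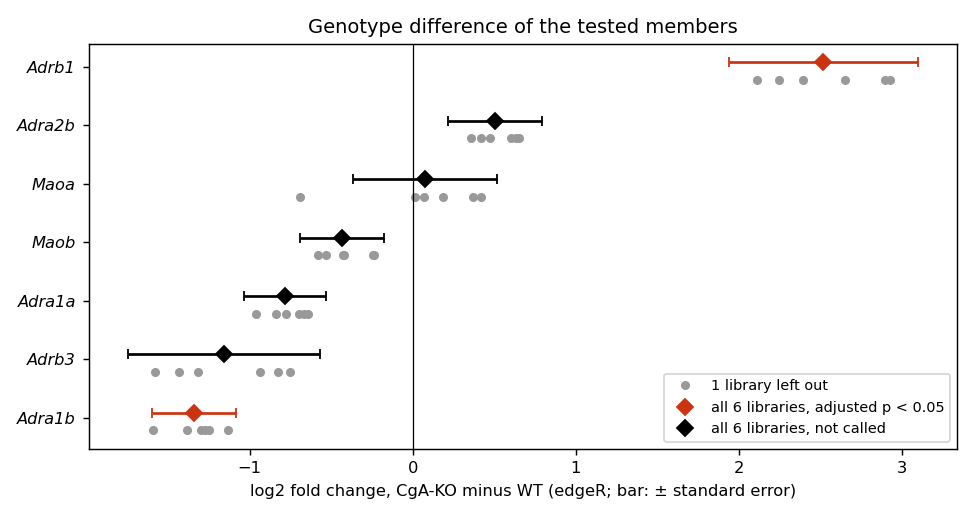
The log2 fold change of each tested gene, CgA-KO minus WT, from edgeR on a linear axis. Diamonds with ± standard error use all 6 libraries (red, adjusted p under 0.05), and grey points each leave out 1 library. Adrb1, at 2.52, and Adra1b, at -1.34, are the only red ones, and the grey points of Maoa spread from -0.69 to 0.42 across zero.

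Levels of different genes were compared as CPM per kilobase of the gene's joined exons. These join the exons of all annotated transcripts, 8728 bases for Adra1a and 3382 for Adra1b. Which transcripts the liver expressed was not tested, so orders and ratios per kilobase, here and above, depend on that choice of length. In WT livers the order was Maob (39.6 ± 10.6), Adra1b (20.3 ± 6.64), Maoa (2.73 ± 0.411), Adrb3 (2.57 ± 1.51), Adra1a (0.964 ± 0.0991), Adra2b (0.809 ± 0.114), Adrb1 (0.247 ± 0.131) and Adra2a. The libraries of Maoa and Adrb3, of Adrb3 and Adra1a, and of Adra1a and Adra2b overlapped, so these neighbours did not differ beyond their spread. In CgA-KO livers Maob (29.3 ± 6.13) and Adra1b (8.01 ± 0.649) again came first, followed by Maoa (2.89 ± 2.13), Adrb1 (0.609 to 1.92 in the 3 livers), Adrb3 (1.15 ± 0.618), Adra2b (1.14 ± 0.231) and Adra1a (0.561 ± 0.128). There the libraries overlapped between each of the neighbours from Maoa to Adra2b.

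Ratios within a library do not depend on its scaling. The level of Adra1b per kilobase was 86.8, 127 and 65.5 times that of Adrb1 in WT replicates 1, 2 and 3 and 5.23, 3.94 and 12.7 times in CgA-KO replicates 1, 2 and 3. The highest CgA-KO ratio was thus well under the lowest WT ratio, and Adra1b was still the more abundant in every library. Adrb3 per kilobase was 12.4, 8.39 and 9.34 times Adrb1 in WT, and 0.944, 0.738 and 0.719 times in CgA-KO livers. In CgA-KO replicates 1 and 3, with 115 against 122 and 33 against 46 counts, counting error does not order these 2 genes, since the exact 95% binomial intervals of the share of Adrb3 in both, 42.0 to 55.1% and 30.8 to 53.4%, include equal shares. Within each genotype this ratio varied less than Adrb3 itself, which spanned 4.27 times among WT livers. Since Adrb1 is in both ratios and differed between the genotypes, they are not independent of its own result.

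**Figure D3:**
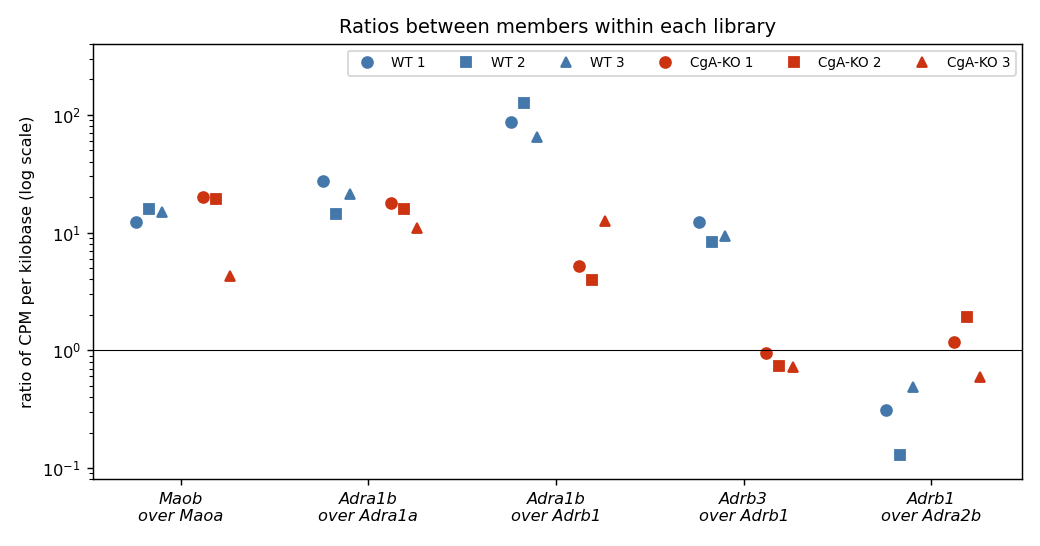
Ratios of CPM per kilobase between pairs of the genes in each library, on a log axis, with WT in blue, CgA-KO in red and 1 marker shape for each replicate. Adra1b over Adrb1 and Adrb3 over Adrb1 separate the genotypes, the latter at 8.39 or more in WT and 0.944 or less in CgA-KO, while Maob over Maoa overlaps because of CgA-KO replicate 3 at 4.25.

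Monoamine oxidases. Maoa and Maob lie next to each other on the X chromosome on opposite strands, Maoa from 16619698 to 16687818 and Maob from 16709282 to 16817366. Maob, the more abundant per kilobase in every library, was at 79.5, 138 and 113 CPM in WT against 85.3, 96.9 and 63.3 CPM in CgA-KO replicates 1 to 3. The genotypes overlapped, with means of 110 ± 29.5 and 81.8 ± 17.1 CPM. Its log2 fold change of -0.43 (standard error 0.256) was not called by edgeR (adjusted p = 0.303). Counts of 888 to 3252 lay behind these values, so the spread between livers, rather than depth, set the precision.

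Maoa was at 9.67, 13.1 and 11.4 CPM in WT against 6.40, 7.45 and 22.3 CPM in CgA-KO replicates 1, 2 and 3. CgA-KO replicates 1 and 2 lay below all WT livers and CgA-KO replicate 3 above all of them. The fitted log2 fold change was 0.07 (standard error 0.440, edgeR adjusted p = 0.933), a value that CgA-KO replicate 3 decided. Without it the log2 fold change was -0.69 (edgeR adjusted p = 0.142). The ratio of Maob to Maoa per kilobase was 12.3, 15.8 and 14.9 in WT, with 19.9 and 19.4 for CgA-KO replicates 1 and 2, against 4.25 for CgA-KO replicate 3. CgA-KO replicate 3 also had the lowest Adrb3 and Maob of all 6 libraries.

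The genes most like each of the 7 tested genes were sought by Pearson's r of log2 CPM over the 6 libraries, among 9936 genes with a mean of at least 5 CPM. Adra1b was most like Bud13 and Cad (r = 0.998 for each). For Adra1a they were Rcbtb1 (0.998) and Mup13.3 (0.992), a row that repeats a symbol. Adrb1 was nearest to Riok1 (0.997) and Csnk1d (0.995), and Adra2b to Arhgap31 (0.992) and Ankfy1 (0.991). For Adrb3 the nearest were Letmd1 (0.994) and Kdm5d (0.991), and for Maob they were Dlat (0.989) and Mpdz (0.983). Maoa stood apart with r = 0.930 for Rraga and 0.925 for Slc30a6, and 9 genes over 0.9, against 130 to 324 for the other 6. All points share the same 6 libraries, and where both genes differ between the 2 genotypes, that alone carries part of r. Maoa, Rraga and Slc30a6 hardly differed between them (log2 fold change 0.07, 0.07 and -0.05). Each named gene was also picked as 1 of the 2 highest of 9936 on 6 points, which by itself favours a high r.

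Genes around these receptors and enzymes were followed in 11 lists with 139 tested genes. Of these, edgeR called 21 higher and 6 lower in CgA-KO livers, 19.4% of the lists against 12.4% of all genes tested. Their median log2 fold change was 0.16, against -0.01 over all genes. Leaving out WT replicate 3 brought the 27 calls down to 5. There were 12 calls when WT replicate 2 was left out, and 11, 11 and 15 for CgA-KO replicates 1, 2 and 3.

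Synthesis and uptake. Th, the rate-limiting enzyme of catecholamine synthesis, and Dbh, which makes norepinephrine from dopamine, had 0 counts in all libraries, and Pnmt, which makes epinephrine, had 1 count in WT replicate 3 alone. Of the list of 11 synthesis and storage genes, 4 were tested and 1 was called. That was Ddc, the aromatic amino acid decarboxylase that makes dopamine and serotonin, which rose from 20.5 ± 4.64 to 53.5 ± 5.18 CPM, or by 1.38 ± 0.204 (standard error) on the log2 scale (edgeR adjusted p = 0.00603). Ddc was called in all 6 fits that left out a library. Of 6 uptake genes 2 were tested and 0 called by edgeR, DESeq2 or limma-voom, while 1 had an unadjusted edgeR p-value under 0.05. Over all genes tested limma-voom called 13.1%, and 29.1% had an unadjusted edgeR p-value under 0.05.

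Breakdown beyond the oxidases. Of 14 genes for the aldehyde steps and for breakdown beside the oxidases, 12 were tested. By edgeR 1 was called higher and 1 lower, with a median log2 fold change of -0.27 over the 12. DESeq2 called 1 higher and 3 lower, and limma-voom 1 higher and 1 lower, under rules that called 17.2% and 13.1% of all genes. Akr1b3, an aldose reductase, rose from 6.09 ± 1.75 to 20.8 ± 3.58 CPM (log2 fold change 1.78, edgeR adjusted p = 0.00581). Adh4, an alcohol dehydrogenase of liver, went from 142 ± 22.9 to 61.3 ± 15.5 CPM (log2 fold change -1.21, edgeR adjusted p = 0.0156). Its adjusted p reached 0.0732 when single libraries were left out, with the call lost without WT replicate 3, CgA-KO replicate 1 or CgA-KO replicate 2. Aldh2, the mitochondrial aldehyde dehydrogenase, was at 1539 ± 274 and 1352 ± 342 CPM, and the genotypes overlapped (edgeR adjusted p = 0.710).

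The cAMP arm. Of 12 tested G protein genes edgeR, DESeq2 and limma-voom called 0 each, and 2 had an unadjusted edgeR p-value under 0.05, 1 in each direction. Gnas, which encodes the Gs alpha subunit, was at 326 ± 62.2 and 298 ± 108 CPM (log2 fold change -0.13, edgeR adjusted p = 0.817). The 7 tested adenylyl cyclases went both ways, with 3 called higher, 1 lower and a median log2 fold change of 1.34. Adcy6, a cyclase of hepatocytes, went from 84.2, 55.0 and 88.1 CPM in WT to 36.2, 36.9 and 35.7 CPM in CgA-KO livers. Adcy6 fell by 1.06 on the log2 scale (standard error 0.213, edgeR adjusted p = 0.0161). Adcy9, another cyclase of liver, was at 12.2 ± 2.28 CPM in WT against 12.3 ± 1.30 CPM in CgA-KO (edgeR adjusted p = 0.972). Adcy7, a cyclase known from blood cells, was at 16.3, 2.42 and 4.40 CPM in WT against 37.9, 31.8 and 29.6 CPM in CgA-KO livers (log2 fold change 2.15, edgeR adjusted p = 0.0439). The cyclases as a sum overlapped between the genotypes, at 73.9 to 118 CPM in WT and 87.6 to 112 CPM in CgA-KO libraries. Without WT replicate 3 or any single CgA-KO library Adcy6 lost its call (adjusted p up to 0.0816), and Adcy7 kept its call in 1 of the 6 such fits, the one without WT replicate 1, where its log2 fold change was 3.30. Adcy7 was also not called in 4 of 8 processing alternatives (library size alone, upper-quartile factors and both other filters), and Adcy6 not with library size alone.

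Further down the arm, 13 cAMP phosphodiesterases were tested and 1 was called. Pde3a was at 1.91 ± 0.374 CPM in WT against 4.29 ± 0.358 CPM in CgA-KO livers (log2 fold change 1.18, edgeR adjusted p = 0.0378), a call kept in 1 of the 6 fits with a library left out, where the adjusted p reached 0.163. Of 20 genes of protein kinase A and CREB 0 were called by edgeR, DESeq2 or limma-voom, and 3 had an unadjusted edgeR p-value under 0.05, 1 of them higher. Prkaca, a catalytic subunit of the kinase, was at 44.1 ± 4.37 and 40.5 ± 3.42 CPM (adjusted p = 0.671).

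The calcium arm. Of 21 tested genes 4 were called higher and 1 lower, with a median log2 fold change of 0.10. The list takes in protein kinase C genes of several classes, whether or not calcium activates the kinase. Gnaq, the Gq alpha subunit gene, was at 23.3 ± 2.13 and 28.8 ± 6.01 CPM (edgeR adjusted p = 0.344). Plcb1, a phospholipase C that Gq activates, was at 10.7, 18.3 and 19.0 CPM in WT against 9.60, 9.79 and 11.8 CPM in CgA-KO livers, which overlap (edgeR adjusted p = 0.137). Itpr3, a calcium release channel that is low in hepatocytes, had levels of 3.55 ± 1.96 and 11.4 ± 2.32 CPM (log2 fold change 1.71, edgeR adjusted p = 0.0218), with an adjusted p up to 0.0957 when a library was left out. Prkcz, an atypical protein kinase C, went from 22.2 ± 3.70 to 13.3 ± 1.28 CPM (log2 fold change -0.74, edgeR adjusted p = 0.0412), a call that no fit with a library left out kept.

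Receptor desensitisation. Of 16 tested genes of receptor kinases, arrestins and regulators of G protein signalling, 5 were called higher and 0 lower by edgeR. A positive log2 fold change was found in 14, and the median of all 16 was 1.29. DESeq2 called 12 and limma-voom 9, all higher, and 13 had an unadjusted edgeR p-value under 0.05, against 17.2%, 13.1% and 29.1% of all genes by these rules. Rgs2, which switches off Gq, had levels of 3.85, 3.02 and 2.24 CPM in WT against 21.8, 20.0 and 14.0 CPM in CgA-KO livers. It rose by 2.63 ± 0.283 (standard error) on the log2 scale (edgeR adjusted p = 0.00296) and was called in every alternative. Grk2, the kinase that phosphorylates activated beta receptors, was at 37.4 ± 12.7 and 72.3 ± 18.5 CPM (edgeR adjusted p = 0.0573), and Arrb1, an arrestin that binds them next, at 12.4 ± 4.75 and 25.4 ± 6.52 CPM (adjusted p = 0.0544). The genotypes did not overlap in either gene. Each was called in 4 of 8 processing alternatives, DESeq2 and limma-voom among them, and in 1 of the 6 fits with a library left out.

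Glycogen and cAMP-induced genes. Of 21 glycogen genes 2 were called higher and 3 lower, with a median log2 fold change of -0.03. Gys2, the liver glycogen synthase, fell from 201 ± 60.1 to 65.3 ± 13.0 CPM (log2 fold change -1.62, standard error 0.277, edgeR adjusted p = 0.00985) and was called in all alternatives. Pygb, the brain form of glycogen phosphorylase, was at 2.80 ± 1.23 and 9.92 ± 2.14 CPM (log2 fold change 1.85, edgeR adjusted p = 0.0130, or 0.0640 without WT replicate 3). Pygl, the liver form, was at 250 ± 53.7 and 183 ± 18.6 CPM and was not called (log2 fold change -0.45, edgeR adjusted p = 0.231). Phka2, the liver subunit of phosphorylase kinase, was at 28.7 ± 10.8 and 33.8 ± 6.38 CPM (edgeR adjusted p = 0.615). Of 12 tested cAMP-induced genes, 4 were called higher and 0 lower by edgeR, with a median of 0.55 and 0 lower also at an unadjusted p-value under 0.05, or by DESeq2 or limma-voom. The 4 were Fos, Nr4a1, Dusp1 and Id1. Pck1 and G6pc, both gluconeogenic genes, were not called (log2 fold change 0.08 and 0.14, edgeR adjusted p = 0.897 and 0.809). Of the 12, 10 had a positive log2 fold change, and Crem (-0.20) and Per1 (-0.31) a negative one. Apart from Fos, these genes were named after their values were seen. Fos, an immediate early gene, had levels of 0.716, 1.11 and 0.212 CPM in WT against 1.90, 12.9 and 7.39 CPM in CgA-KO livers (log2 fold change 3.45, edgeR adjusted p = 0.0219), a call kept in 2 of the 6 fits with a library left out, where the adjusted p reached 0.104. Fos was also not called by limma-voom or with a total of at least 1 count as the filter.

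**Figure D4:**
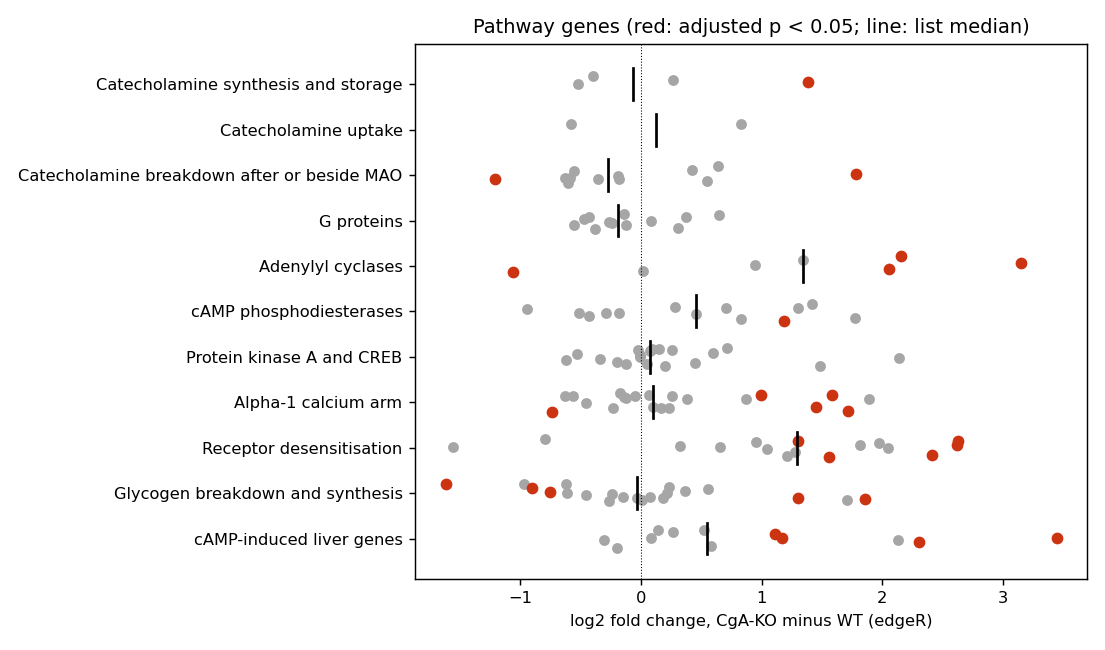
The log2 fold change of each tested gene in 11 pathway lists, CgA-KO minus WT, on a linear axis, with called genes in red, others in grey and the list median as a black line. The calls of the desensitisation list all lie to the right, and the median of all its tested genes is 1.29. Calls of the cyclase and glycogen lists lie on both sides.

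The marker genes of Kupffer cells and macrophages moved with the genotype. Of 11 tested, 9 were called higher in CgA-KO by edgeR, and their summed level was 132 to 322 CPM in WT and 1302 to 1923 CPM in CgA-KO libraries. Among the CgA-KO livers this sum was lowest in replicate 3, as was Adrb1. The sum was highest in replicate 1 and Adrb1 in replicate 2. Of 10 stellate cell markers 5 were called higher, with sums of 264 to 324 and 440 to 698 CPM. One of them, Rgs5, is also on the desensitisation list. T and NK cell markers, 4 of 6 called higher, summed to 2.93 to 12.1 CPM in WT and 36.0 to 91.2 CPM in CgA-KO, and neutrophil markers, 2 of 4 called higher, to 6.60 to 11.9 and 44.2 to 301 CPM. The part of these cells in the levels of Adrb1, Adcy7, Pygb, Itpr3, Rgs2 and the desensitisation genes was not tested.

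Of 9 tested hepatocyte markers edgeR and limma-voom called 0 and DESeq2 1, Ttr (transthyretin, named after its values were seen), which was lower and the only one with an unadjusted edgeR p-value under 0.05. Their sums overlapped, at 58218 to 95548 CPM in WT and 49075 to 82926 CPM in CgA-KO libraries. Most of each sum was Alb, at 30647 to 66135 CPM. Of the 9 markers 7 had a negative log2 fold change, with a median of -0.20 against -0.01 over all genes. Adra1b, Adcy6 and Gys2 were also lower in CgA-KO, and the part of the hepatocyte share in their levels was not tested. Smooth muscle markers, with sums of 11.7 to 40.0 and 10.5 to 20.5 CPM, overlapped as well, as did those of the bile duct, B cell and adipocyte lists. The adipocyte sums were 8.76 to 31.6 CPM in WT and 10.6 to 19.7 CPM in CgA-KO libraries. Of these, Fabp4 alone held 12.2 ± 8.48 and 14.7 ± 4.25 CPM. The sinusoidal endothelial sums also overlapped, at 166 to 217 and 179 to 262 CPM, but of its 10 tested genes edgeR called 2 higher, Lyve1 (log2 fold change 2.81) and Cdh5 (1.92), and 1 lower, Clec4g (-1.11), while DESeq2 called 4 higher and 1 lower. These genes were named after their values were seen. Markers of red blood cells summed to 118 to 291 CPM in WT and 333 to 475 CPM in CgA-KO, with 1 globin gene, Hba-a2, called higher though uncertain beside its near-identical copy Hba-a1 (log2 fold change 1.42, edgeR adjusted p = 0.0452) and Alas2, the heme synthesis enzyme of red cell precursors, called lower (-1.09, adjusted p = 0.0287). Of 9 markers of sympathetic neurons and chromaffin cells none passed the filter, and their sum was at most 0.887 CPM in any library.

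**Figure D5:**
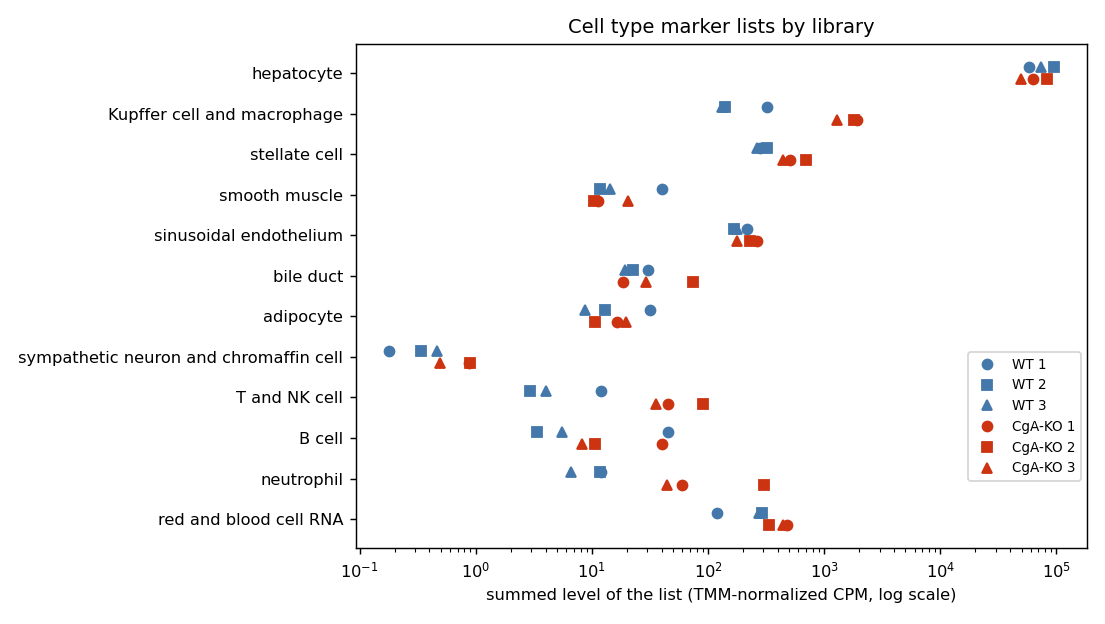
Summed CPM of 12 cell type marker lists in each library on a log axis, WT in blue and CgA-KO in red. The macrophage sums of the CgA-KO livers, from 1302 to 1923 CPM, lie above the WT sums, whose highest is 322 CPM, while hepatocyte sums overlap.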

How the data were processed

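RNA-seq was made from livers of 3 WT and 3 CgA-KO male mice, and each labelled replicate was kept as a separate sample. The authors quantified reads at the transcript level with Salmon 1.4.0 against the GRCm38 transcriptome, and the deposited table holds whole-number counts by gene symbol, not scaled for depth. How transcripts were summed to genes is not given in the sources used here. The 8 genes and all lists were chosen with earlier results of these data known.

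R 4.3.3 and edgeR 4.0.16 were used on the counts as deposited. The filter was filterByExpr (minimum count 10), followed by TMM factors, robust quasi-likelihood fits on genotype and a two-sided test with Benjamini-Hochberg adjustment over all 13867 genes. Calls used an adjusted p-value under 0.05. Standard errors divide the log2 fold change by the root of F, and log2 CPM has a prior count of 2. Replicates differed by more than sampling noise (chi-square per degree of freedom 29.9 to 190). Total counts were 10558616 to 31087453, and floors and intervals cover counting error only. Exon lengths and coordinates are those of GENCODE M21 on GRCm38, and start site windows those of RefSeq on GRCm38.p6, which held 5 of the 8 genes.

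Beside the 8 genes, the text names from each pathway list the called gene with the largest rise and fall among those without overlap that reach 1 CPM in either genotype, and 15 fixed genes. A few rows covered by that rule are left out here. Alternatives were DESeq2 1.42.0, limma-voom (limma 3.58.1), 3 other scalings, 2 other filters, a replicate block and the omission of each library. The procedure was tested on simulated data. Figures were drawn with matplotlib 3.10.9.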

Additional observations from a re-analysis of the deposited data

How the results depend on the processing

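Calls among the 8 genes went from 2 to 1 with library size alone, with at least 10 counts in every library and with the replicate block, and to 3 with DESeq2. Calls higher in CgA-KO went from 1 to 0 with at least 10 counts in every library, where Adrb1 drops out because WT replicate 2 held 8 counts, and with the replicate block, where Adrb1 was at 2.44 on the log2 scale (edgeR adjusted p = 0.0712). Calls lower in CgA-KO went from 1 to 2 with DESeq2, which added Adra1a at -0.80, and to 0 with library size alone, where Adra1b was at -1.12 (edgeR adjusted p = 0.0732). That scaling moved the median over all genes from -0.01 to 0.26 (log2) and the share of calls that were higher from 69.1% to 86.6%, and gave 2 lower pathway calls in place of 6. Maoa turned to -0.20 with limma-voom, to -0.14 with the block and to -0.69 without CgA-KO replicate 3, without a call in any of them. Leaving out 1 library at a time, the calls among the 8 genes ran from 0 to 2, with 0 to 1 in each direction, and the pathway calls from 5 to 34 (4 to 28 higher, 1 to 6 lower). Over all genes there were 1726 calls, and 394 without WT replicate 3, 841 without WT replicate 2, 744 and 976 without CgA-KO replicate 1 or 2, and up to 2126 otherwise. The log2 fold change then ran from -1.59 to -1.13 for Adra1b, 2.11 to 2.93 for Adrb1 and -0.69 to 0.42 for Maoa. Same-numbered libraries deviated from their group means with r = 0.199, 0.0127 and -0.0659, so the labels' numbers are not taken as pairs, and not every library correlated best with its own number. The block changed no other call among the 8 genes. Pathway calls were 28 with it against 27, but not list by list, with 2 in place of 4 adenylyl cyclases and 10 in place of 5 desensitisation genes, and Pde3a was not called. In other cases where a call was lost the cause was not tested. Counts were few for Adra2a, at most 6 in a library, and in WT for Adrb1, at 8 to 28. The lowest of these Adrb1 counts was in WT replicate 2, the library with the highest total.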
